A study of Homo sapiens with 12 samples.

Results

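The interaction of choline salicylate and KPT-330 was measured in JEKO-1, a line grown from a human mantle cell lymphoma, with all 12 of the 12 RNA sequencing libraries of the study. They form a crossed design of 4 groups with 3 libraries each, taken after 48 h: the solvent DMSO alone, choline salicylate (CS), KPT-330, and KPT-330 given together with CS. CS is a salicylate salt, and KPT-330 (selinexor) blocks XPO1, also called CRM1. The question is for which genes the effect of one drug differs when the other is present. All groups come from a single line, cultured in the same medium, and its RNA was extracted with a kit made for fixed tissue. No source used here gives the drug concentrations behind these libraries or says that replicates were grown separately. The p-values therefore rest on the variation among the 3 libraries of each group, part or all of which may be technical.

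XPO1 carries proteins with a nuclear export signal, and some RNAs, out of the nucleus; among its cargoes are p53, FOXO factors, IκB proteins and the retinoblastoma protein, which collect in the nucleus when it is blocked. Salicylates are anti-inflammatory drugs that do not act through one target, with NF-κB signalling, AMPK and mitochondrial coupling among those described. Mantle cell lymphoma is a B cell tumour driven by cyclin D1, and its cells keep up the replication and mitosis programmes that E2F factors and the retinoblastoma protein control.

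Levels are given as CPM, read counts relative to each library's total after TMM scaling (trimmed mean of M values). For each gene the effect of a drug is a difference of log2 levels, and the interaction is the CS effect in the presence of KPT-330 minus the CS effect in its absence, (KPT-330 with CS minus KPT-330) minus (CS minus DMSO). An interaction of 0 means that the log2 effects of both drugs add up. A gene lay above additivity if its interaction was positive and below if negative, with p, adjusted by Benjamini and Hochberg, at or under 0.05 in edgeR's quasi-likelihood test over all 19460 genes tested. Interactions are log2 values ± SE. Group levels are given in the order DMSO, CS, KPT-330 and both drugs, as mean ± SD of 3 libraries.

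Total counts lay between 35325563 and 59490178 per library. The 3 libraries given KPT-330 alone stood apart in 2 technical measures. Their log2 counts rose with GC content by 0.21 ± 0.02 per 10 GC points (SD, n = 3), against -0.12 ± 0.20 for DMSO, -0.09 ± 0.14 for CS and 0.00 ± 0.14 for both drugs, and their biological coefficient of variation was 2.87% against 15.5%, 11.9% and 10.9%. The interaction followed GC content: its median fell from 0.18 among the 424 genes with at most 35% GC to -0.61 among the 478 with more than 65%. A GC correction over all libraries removes each library's trend with GC content. By construction it left the medians of the 8 GC classes near 0, between -0.03 and 0.00. With it, 538 of the 562 genes with an interaction of at least 1 in size were still called in the same direction. The treatment groups and these library differences cannot be told apart by design, so GC-corrected values (correction over all libraries) stand beside list counts and named interactions that they move by over 1.5 times or whose call they change.

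**Figure D1:**
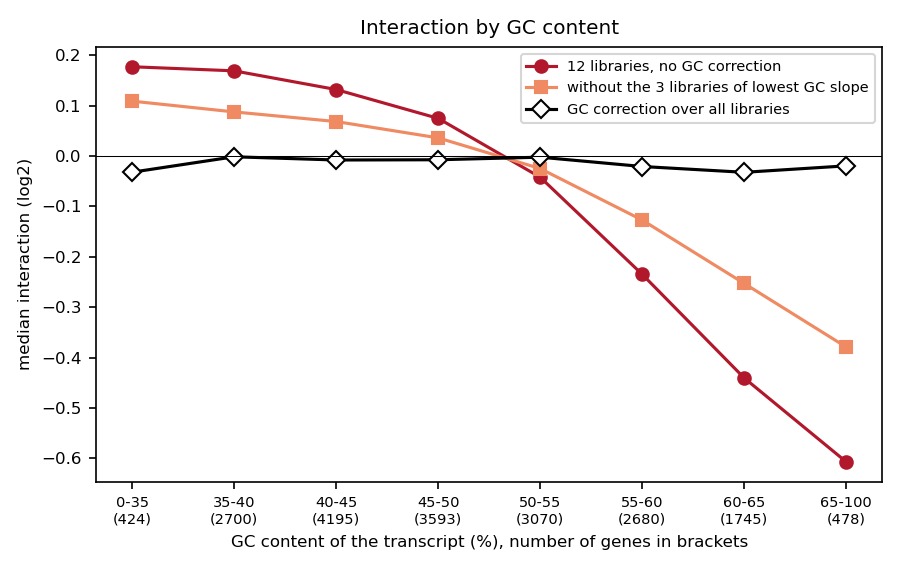
Median interaction (log2, vertical axis) of genes grouped by the GC content of their transcripts (horizontal axis, percent, number of genes in brackets). Without correction the line falls from 0.18 to -0.61. Without the library of lowest GC slope in DMSO, CS and the combination it is flatter. After GC correction over all libraries it stays near 0, since that correction removes the trend.

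Of the 19460 genes, 1565 lay above additivity (8.04%) and 1288 below (6.62%), 2853 in all (14.7%); 5698 had an unadjusted p under 0.05. By called effects, most of these genes had a CS effect in the presence of KPT-330. An interaction is equally a KPT-330 effect that differs with CS. Of the 2853 genes, 2500 had a called CS effect with KPT-330 present and 558 without it, and in 2402 the CS effect was the larger of the pair with KPT-330. Over all genes CS changed 1729 (8.88%) without KPT-330 and 7311 (37.6%) with it. These counts are given without GC correction, and groups of unlike spread share a single estimate of it. Mean GC slopes were 0.21 for KPT-330 and 0.00 for both drugs, but -0.12 for DMSO and -0.09 for CS. A drug effect and these library differences cannot be told apart in the called counts. KPT-330 changed 9446 (48.5%) without CS and 9297 (47.8%) with it, and 10806 (55.5%) differed between both drugs and DMSO. These CS effects share no library; their Spearman correlation was 0.30 over 19460 genes, which are not independent replicates. Of the 1729 genes, 1371 had the same sign with KPT-330 and 358 the other. The numbers above and below additivity ranged from 885 and 828 without KPT-330 replicate 3 to 2639 and 2072 without DMSO replicate 1, and with GC correction they were 2162 and 2959, so that the share above changed from 54.9% to 42.2%.

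**Figure D2:**
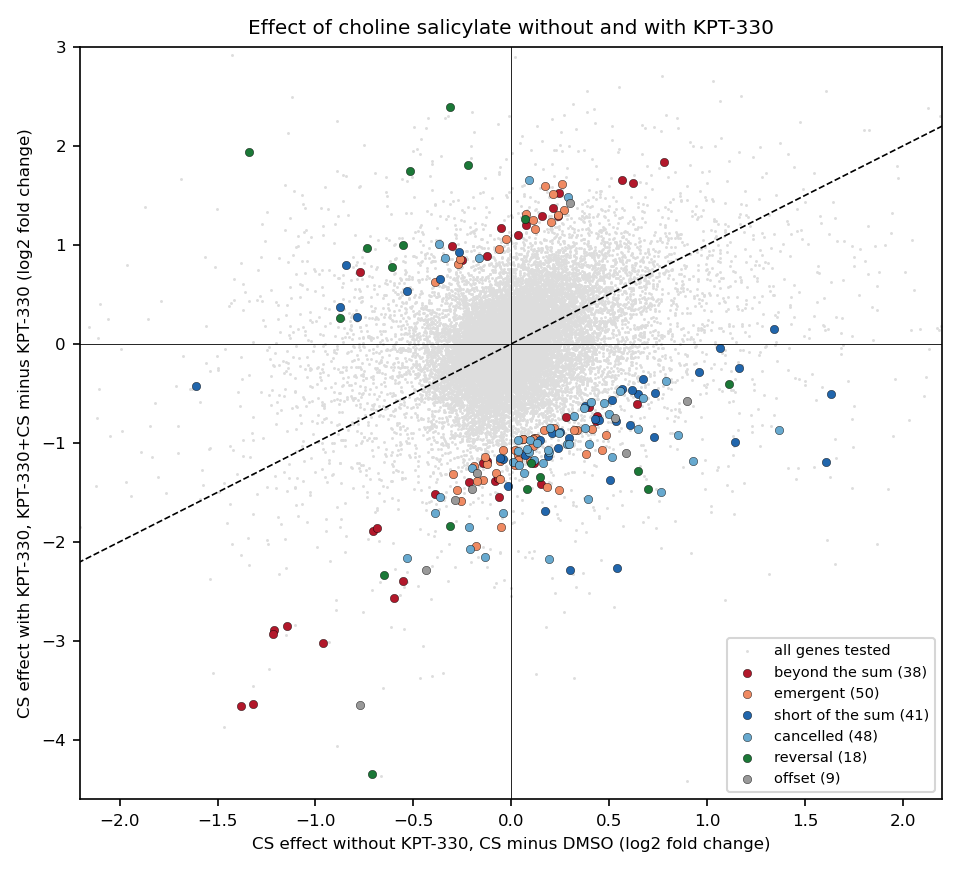
Effect of CS on each gene without KPT-330 (CS minus DMSO, horizontal axis, log2) and with it (KPT-330 with CS minus KPT-330, vertical axis, log2); grey points are all genes tested, and coloured points are the 204 genes with an interaction of at least 1 in size and at least 5 CPM in 1 group, by form. On the dashed line the effects are equal and the interaction is 0; 71 genes tested and 1 coloured gene lie outside the axes.

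The 562 genes with a called interaction of at least 1 in size (2.89% of those tested, 222 above at 1.14% and 340 below at 1.75%) were divided by form. With both drugs, 72 genes went beyond the sum of the single effects, and 119 changed although each single effect was under 0.5 (emergent); these are the forms of synergy. In 119 genes the response fell short of the sum, and in 142 it was cancelled, with less than 0.5 left against DMSO; these are the forms of antagonism. In 82 genes the combination moved against a sum of at least 0.5 (reversal), and in 28 against a smaller sum (offset). The DMSO libraries enter the single effects, the combined effect and the interaction alike, so the forms describe the genes and were not tested.

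The forms were also counted above and below additivity, without GC correction and without a test. Their sizes depend on the libraries. Without DMSO replicate 1, 255 genes fell short of the sum and 306 were cancelled, against 119 and 142 with all libraries. Of the genes above additivity with all libraries, 88 were synergistic (31 beyond the sum and 57 emergent), 72 antagonistic (23 short and 49 cancelled) and 51 were reversals. Of those below, 103 were synergistic (41 and 62), 189 antagonistic (96 and 93) and 31 were reversals. Most concern genes of low level: 204 of the 562 reached 5 CPM in a group, and among these the most frequent forms were cancelled below additivity (43 genes), emergent below (36) and short of the sum below (34). The sign of the departure was the same on the linear CPM scale in 558 of the 562. The 4 exceptions, picked out after their values were seen, were CD36, TMPRSS15, LINC00158 and RP11-775D22.2.

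**Figure D3:**
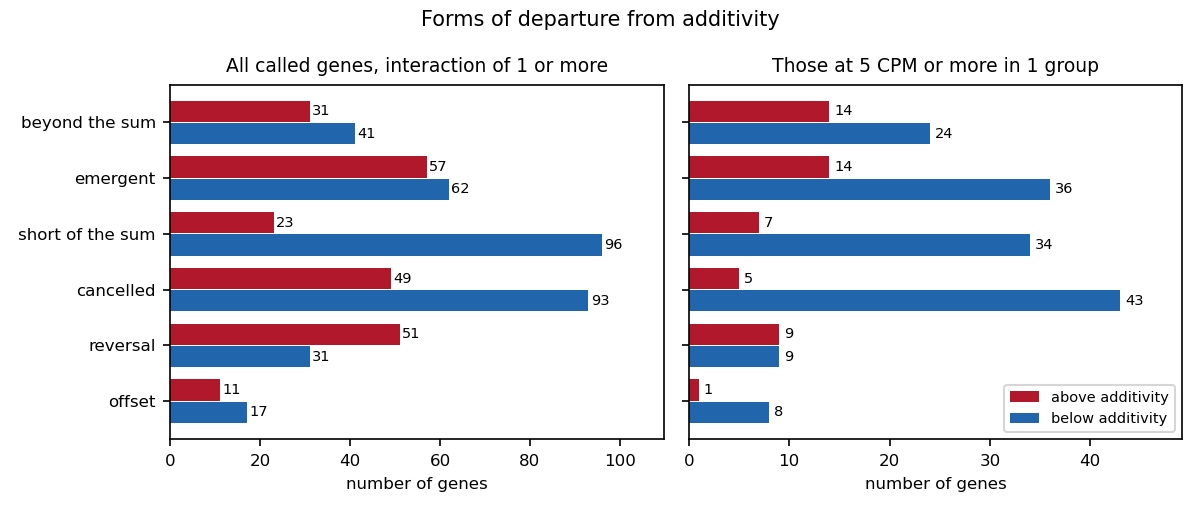
Number of genes in each form of departure from additivity (horizontal axis), above additivity in red and below in blue, for all 562 genes on the left and for the 204 with at least 5 CPM in 1 group on the right. Short of the sum and cancelled genes lie mostly below additivity, 96 against 23 and 93 against 49.

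Genes induced beyond the sum were led by ANKRD37, MT-TV, DNAJC3-AS1, BMF and YPEL2. BMF (ENSG00000104081, chr15:40087890-40108892 on hg38) encodes a BH3-only member of the BCL2 family that promotes apoptosis. Its level was 7.93, 5.97 and 6.91 CPM in the 3 DMSO libraries, 7.57, 7.5 and 9.03 in CS, 16.5, 15.8 and 16.8 in KPT-330 and 43.1, 45.2 and 38.9 with both drugs. Every library with both drugs lay above every other, and CS alone lay close to DMSO. CS changed BMF by 0.21 ± 0.11 without KPT-330 (adjusted p = 0.279) and by 1.37 ± 0.10 with it (adjusted p = 9.73e-07), an interaction of 1.16 ± 0.15, adjusted p = 0.000345. The single effects added up to 1.45, and the combination reached 2.61.

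YPEL2 had the same profile, with 4.43 ± 0.63, 4.93 ± 0.134, 9.9 ± 0.439 and 24.2 ± 2.04 CPM and an interaction of 1.14 ± 0.15, adjusted p = 0.000351. ANKRD37, a gene for an ankyrin repeat protein, was lowered by CS and raised by KPT-330 alone, and was highest with both, at 2.79 ± 0.558, 1.62 ± 0.244, 5.62 ± 0.285 and 9.31 ± 0.255 CPM (1.5 ± 0.20, adjusted p = 0.000439). The mitochondrial valine tRNA gene MT-TV stood at 10.1 ± 1.35, 8.17 ± 0.971, 14.6 ± 0.281 and 29.1 ± 1.67 CPM (1.29 ± 0.15, adjusted p = 0.000165), and the noncoding RNA DNAJC3-AS1 at 2.04 ± 0.15, 1.96 ± 0.199, 3.88 ± 0.511 and 8.74 ± 0.245 CPM (1.22 ± 0.18, adjusted p = 0.000707). TP53INP1, a p53 target that promotes autophagy and cell death, had 0.883, 0.66 and 1.11 CPM in DMSO, 1.7, 1.57 and 1.32 in CS, 5.37, 4.89 and 4.5 in KPT-330 and 16, 18.3 and 18.5 with both. Its groups did not overlap and rose in that order, and the interaction was 1.06 ± 0.23, adjusted p = 0.00799. Each drug raised TP53INP1 alone, CS by 0.78 ± 0.18 and KPT-330 by 2.47 ± 0.17, and the combination by 4.31 ± 0.17.

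Repression beyond the sum was led by BBOX1, SIRPA, ABCA6, CD36 and NFKBID. BBOX1 (ENSG00000129151, chr11:27040725-27127809) encodes the enzyme of the last step of carnitine synthesis. It was at 69.96, 77.3 and 84.8 CPM in DMSO, 30.5, 29.4 and 29.2 in CS, 87.4, 87.5 and 87.3 in KPT-330 and 6.44, 6.69 and 7.51 with both drugs. CS lowered it in both settings, without overlap, and the combination was far below CS alone although KPT-330 alone did not pass the test (adjusted p = 0.0575). The CS effect was -1.38 ± 0.07 without KPT-330 and -3.66 ± 0.08 with it, an interaction of -2.28 ± 0.11, adjusted p = 1.27e-07.

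CD36 (ENSG00000135218, chr7:80369575-80679277), a receptor for fatty acids and lipoproteins, fell with each drug alone and further with both. Its libraries had 32, 35.9 and 38.5 CPM in DMSO, 15.8, 15.8 and 14.4 in CS, 7.06, 7.31 and 7.68 in KPT-330 and 0.784, 1.15 and 1.06 with both. The 4 groups did not overlap, and the interaction was -1.68 ± 0.16, adjusted p = 4.16e-05. On the linear scale the departure of CD36 had the other sign, 13.8 CPM. ABCA6, an ABC transporter gene, stood at 90.6 ± 10.2, 61.7 ± 4.29, 45.8 ± 2.12 and 8.68 ± 0.857 CPM (-1.84 ± 0.13, adjusted p = 3.29e-06). SIRPA, the receptor for CD47, stood at 6.37 ± 0.728, 4.21 ± 0.733, 3.37 ± 0.217 and 0.569 ± 0.15 CPM (-1.97 ± 0.25, adjusted p = 0.000317). NFKBID, a nuclear IκB protein gene, was lowered by KPT-330 and not called with CS alone, at 12.8 ± 2.52, 14.3 ± 1.03, 6.93 ± 0.212 and 2.6 ± 0.126 CPM (-1.57 ± 0.18, adjusted p = 0.000155).

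**Figure D4:**
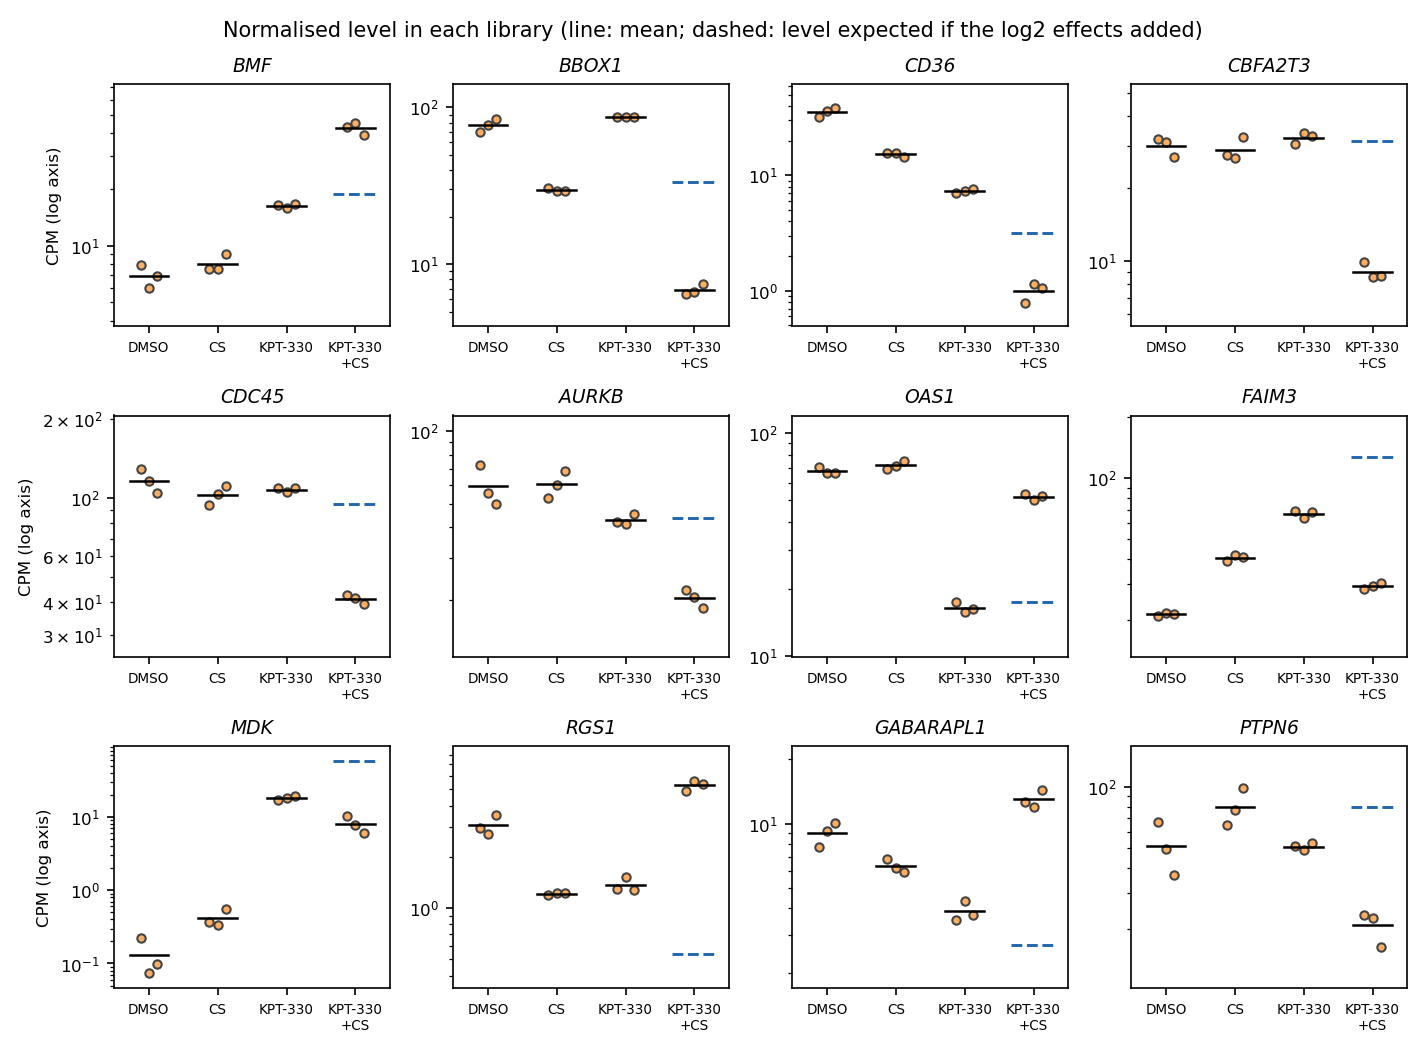
Level of 12 genes in each of the 12 libraries (CPM, log axis); solid lines are group means and the dashed blue line over the combination marks the level expected if the log2 effects of both drugs added up. BMF, RGS1, OAS1 and GABARAPL1 lie above their expected level and the other 8 genes below it.

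Emergent genes moved with both drugs while neither single effect reached 0.5. Among the leading genes below additivity were CBFA2T3, YBX2, PPP1R18 and PKMYT1. CBFA2T3 (ENSG00000129993, chr16:88874858-88977204), a transcriptional corepressor of the ETO family, had 32.1, 31.2 and 27 CPM in DMSO, 27.5, 26.8 and 32.9 in CS, 30.7, 33.9 and 33.2 in KPT-330 and 9.9, 8.51 and 8.59 with both. The first 3 groups overlapped, and all libraries with both drugs lay under 10 CPM. The single effects were -0.05 ± 0.10 and 0.11 ± 0.10, neither of which passed, and the combined effect was -1.74 ± 0.10 (interaction -1.80 ± 0.14, adjusted p = 5.96e-06).

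YBX2, for a Y-box nucleic acid binding protein, stood at 7.83 ± 1.08, 9.28 ± 0.717, 8.42 ± 0.897 and 3.02 ± 0.417 CPM (-1.72 ± 0.19, adjusted p = 9.08e-05). PPP1R18, for an actin-associated subunit of protein phosphatase 1, stood at 11.3 ± 1.84, 14.7 ± 2.81, 10.1 ± 0.695 and 4.68 ± 0.923 CPM (-1.5 ± 0.24, adjusted p = 0.00122). PKMYT1, the kinase that holds CDK1 inactive, stood at 12.5 ± 3.78, 12 ± 2.69, 15.3 ± 0.891 and 5.94 ± 1.38 CPM (-1.31 ± 0.30, adjusted p = 0.0118), a call that was lost with no filter on low counts; its GC-corrected interaction was -0.74.

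The leading emergent genes above additivity were IQCD, TSHR, GUCY1B2, ERO1LB and SLC18B1. IQCD had 3.06, 3.74 and 2.86 CPM in DMSO, 3.31, 3.62 and 3.92 in CS, 3.23, 2.89 and 3.18 in KPT-330 and 10.4, 9.55 and 8.21 with both drugs. All libraries with both drugs lay above the other 9, among which DMSO overlapped both single drugs (1.42 ± 0.19, adjusted p = 0.000345). The thyrotropin receptor gene TSHR had means of 4.77, 5.71, 4.16 and 12.8 CPM (1.36 ± 0.13, adjusted p = 3.9e-05). ERO1LB, an oxidase that forms disulphide bonds in the endoplasmic reticulum, had means of 6.76, 7.3, 5.7 and 13.6 CPM (1.14 ± 0.15, adjusted p = 0.000364). GUCY1B2 had 1.84, 2.15, 1.79 and 5.13 CPM (1.30 ± 0.20, adjusted p = 0.00096) and SLC18B1, a vesicular polyamine transporter gene, 12.7, 10.6, 10.7 and 19.4 CPM (1.12 ± 0.12, adjusted p = 7.71e-05).

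Of the 119 responses short of the sum, the 96 below additivity were inductions smaller than the sum of the single effects. MDK (ENSG00000110492, chr11:46380756-46383837), for the heparin-binding growth factor midkine, had 0.226, 0.0734 and 0.097 CPM in DMSO, 0.368, 0.331 and 0.55 in CS, 17, 18.2 and 19 in KPT-330 and 10.1, 7.65 and 6.01 with both. The groups did not overlap. CS raised MDK by 1.61 ± 0.42 from its low level without KPT-330 and changed it by -1.19 ± 0.19 with KPT-330, an interaction of -2.80 ± 0.45, adjusted p = 0.00149.

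SLITRK6 had 0.739, 0.66 and 0.921 CPM in DMSO, 1.22, 1.18 and 0.996 in CS, 8.54, 7.43 and 7.47 in KPT-330 and 1.33, 1.65 and 1.87 with both (-2.81 ± 0.24, adjusted p = 1.48e-05). Every KPT-330 library lay above every library with both drugs. LIX1 stood at 0.111 ± 0.0783, 0.13 ± 0.0639, 8.26 ± 0.0358 and 1.7 ± 0.119 CPM (-2.58 ± 0.53, adjusted p = 0.00612), SLC2A4RG at 0.572 ± 0.328, 0.816 ± 0.2, 13.6 ± 0.423 and 5.25 ± 1.72 CPM (-1.88 ± 0.47, adjusted p = 0.0177) and STARD4-AS1, an RNA antisense to STARD4, at 1.12 ± 0.0758, 3.48 ± 0.332, 5.35 ± 0.493 and 3.76 ± 0.0433 CPM (-2.14 ± 0.17, adjusted p = 8.6e-06). All 3 were induced by KPT-330 and held a lower level with both drugs. The LIX1 call was lost without CS replicate 3 (-2.17, adjusted p = 0.0516) and the SLC2A4RG call without CS replicate 2 (-1.73, adjusted p = 0.0858) or with no filter.

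Short of the sum above additivity were repressions that did not add up, with MAP1A, SLC7A11, DUSP5 and LMO2 among the leading genes. SLC7A11 is the cystine importer of the glutathione pathway. It had 23, 24.2 and 28 CPM in DMSO, 22.9, 20.3 and 19.3 in CS, 3.44, 2.89 and 4.41 in KPT-330 and 6.8, 6.69 and 7.05 with both drugs. CS did not pass without KPT-330 (-0.27 ± 0.12, adjusted p = 0.221) and raised SLC7A11 in its presence by 0.93 ± 0.14, leaving it below DMSO in every library (1.2 ± 0.18, adjusted p = 0.00105). DUSP5, a phosphatase that restrains ERK, was lowered by each drug, and further with both but by less than the sum, at 14 ± 0.679, 4.59 ± 0.429, 3.52 ± 0.119 and 2.63 ± 0.19 CPM (1.19 ± 0.15, adjusted p = 0.000238). MAP1A, for a microtubule-associated protein, stood at 21.1 ± 1.71, 11.5 ± 0.273, 8.24 ± 0.644 and 10.6 ± 0.457 CPM (1.24 ± 0.12, adjusted p = 4.77e-05). LMO2, for a bridging subunit of transcription factor complexes, had means of 5.15, 3.55, 2.38 and 3.44 CPM (1.07 ± 0.19, adjusted p = 0.0028).

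In cancelled genes the combination returned close to DMSO. OAS1 (ENSG00000089127, chr12:112906777-112932185), an interferon-stimulated enzyme that senses double-stranded RNA, had 70.2, 66.4 and 66.2 CPM in DMSO, 69.4, 71.2 and 75.1 in CS, 17.4, 15.8 and 16.2 in KPT-330 and 53.3, 50.3 and 52.1 with both. KPT-330 alone stood far below the rest without overlap, and both drugs together stood slightly below DMSO. The KPT-330 effect on OAS1 was -2.04 ± 0.06 without CS and -0.47 ± 0.06 with it, and the interaction 1.57 ± 0.08, adjusted p = 3.46e-07. SPP1 (osteopontin) was raised by CS and lowered by KPT-330, and with both drugs stood slightly above DMSO, at 33 ± 1.17, 40.4 ± 1.04, 13.7 ± 0.523 and 38.2 ± 0.801 CPM (1.19 ± 0.08, adjusted p = 2.86e-06). KPT-330 alone also lowered SPRY1, an inhibitor of receptor tyrosine kinase signalling, at 5.06 ± 0.103, 3.93 ± 0.291, 2.54 ± 0.263 and 5.12 ± 0.287 CPM (1.38 ± 0.16, adjusted p = 0.000132), and FRRS1, a ferric reductase gene, at 6.87 ± 0.571, 5.43 ± 0.359, 3.52 ± 0.218 and 6.43 ± 0.568 CPM (1.21 ± 0.15, adjusted p = 0.00029), and for neither was a difference from DMSO called with both drugs.

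FAIM3 (ENSG00000162894, chr1:206904386-206923247), the Fc receptor for IgM on B cells, was cancelled in the other direction. It had 21, 21.6 and 21.5 CPM in DMSO, 39.1, 42 and 40.7 in CS, 68.9, 63.5 and 68.4 in KPT-330 and 28.6, 29.5 and 30.5 with both. Each drug raised FAIM3 alone, by 0.93 ± 0.06 for CS and 1.65 ± 0.06 for KPT-330, and together they raised it by 0.47 ± 0.06, less than either (interaction -2.11 ± 0.08, adjusted p = 2.29e-08). PIGR, the receptor that carries polymeric immunoglobulin across epithelia, was raised by KPT-330 alone and stood at 1.29 ± 0.312, 1.47 ± 0.183, 5.2 ± 0.437 and 1.16 ± 0.189 CPM (-2.37 ± 0.26, adjusted p = 9.88e-05). RAB15, a small GTPase gene, had means of 1.19, 1.08, 5.05 and 1.14 CPM (-2.02 ± 0.24, adjusted p = 0.000209) and TP73, a transcription factor of the p53 family, 1.58, 2.07, 5.73 and 1.95 CPM (-1.96 ± 0.33, adjusted p = 0.00188). KPT-330 raised both in the absence of CS, and no difference from DMSO was called with both drugs.

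Reversals went against the sum of the single effects. RGS1 (ENSG00000090104, chr1:192575727-192580031), a regulator of G protein signalling in activated B cells, had 2.94, 2.74 and 3.54 CPM in DMSO, 1.2, 1.22 and 1.22 in CS, 1.29, 1.52 and 1.28 in KPT-330 and 4.85, 5.57 and 5.35 with both. Both single drugs lay below every DMSO library, and the combination above. CS changed RGS1 by -1.34 ± 0.14 without KPT-330 and by 1.94 ± 0.13 with it, an interaction of 3.28 ± 0.19, adjusted p = 8.84e-07. GABARAPL1 (ENSG00000139112, chr12:10212458-10223130), an ATG8 protein of the autophagosome, behaved likewise with 7.8, 9.27 and 10.04 CPM in DMSO, 6.79, 6.2 and 5.93 in CS, 3.54, 4.34 and 3.74 in KPT-330 and 12.6, 11.9 and 14.4 with both (2.26 ± 0.17, adjusted p = 5.27e-06). Its single effects summed to -1.74 and the combination gave 0.52 ± 0.12. FAM9B, DLGAP1-AS1 and the tryptophan tRNA gene MT-TW had means of 1.54, 1.25, 1.03 and 5.41, of 2.59, 2.22, 1.73 and 6.05 and of 3.25, 1.94, 3.07 and 6 CPM, with interactions of 2.71, 2.03 and 1.70 (adjusted p = 6.36e-06, 5.53e-05 and 0.000284).

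Downward reversals were led by RGS19, PTPN6, SLIT2, RECQL4 and CDC42BPB. PTPN6 (ENSG00000111679, chr12:6946468-6961316), the phosphatase SHP-1 that dampens B cell receptor signalling, had 66.9, 49.3 and 36.8 CPM in DMSO, 64.8, 76.8 and 98.4 in CS, 51.2, 48.9 and 52.7 in KPT-330 and 23.6, 22.8 and 16.5 with both. DMSO and CS libraries spread widely, and all 3 with both drugs lay below the other 9. Neither single effect on PTPN6 passed the test, and the interaction was -1.93 ± 0.28, adjusted p = 0.000684. RGS19, another G protein regulator, had means of 7.04, 11.4, 13.5 and 4.88 CPM (-2.16 ± 0.32, adjusted p = 0.000716). SLIT2, a secreted guidance ligand, was lowered by CS and raised by KPT-330, at 7.48, 4.77, 17 and 3.4 CPM (-1.68 ± 0.18, adjusted p = 7.71e-05). CDC42BPB, a kinase acting with CDC42, had 2.26, 1.81, 5.51 and 1.53 CPM (-1.53 ± 0.27, adjusted p = 0.00232). For RECQL4, a DNA helicase gene, the means were 9.9, 10.5, 14.7 and 5.35 CPM (-1.54 ± 0.47, adjusted p = 0.0427); its call held in 10 of 24 alternative fits and was lost on leaving out any library other than DMSO replicate 1, CS replicate 1 or KPT-330 with CS replicate 1 (-1.59 to -1.21, adjusted p = 0.0756 to 0.13).

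The offset form held GSTA4 above additivity, and LAT2, CHI3L2, TESC, CPNE5 and ACOT7 below. GSTA4, a glutathione transferase gene, had means of 7.71, 9.5, 5.29 and 14.2 CPM (1.12 ± 0.16, adjusted p = 0.000625). LAT2, a membrane adaptor of B cell and mast cell receptors, had 7.24, 10.8, 5.35 and 2.5 CPM (-1.69 ± 0.27, adjusted p = 0.00119), CPNE5, a copine gene, 61.1, 88.2, 46.2 and 27.6 CPM (-1.28 ± 0.21, adjusted p = 0.00147), CHI3L2, a chitinase-like gene, 6.33, 11.8, 4.77 and 3.2 CPM (-1.48 ± 0.21, adjusted p = 0.000643), and TESC, for the calcium-binding protein tescalcin, 7.46, 6.1, 11.9 and 4 CPM (-1.29 ± 0.26, adjusted p = 0.00595). CPNE5 and CHI3L2 rose with CS and fell with KPT-330, and were lowest with both. ACOT7, an acyl-CoA thioesterase gene, had 31.1, 27.1, 48.9 and 17.7 CPM (-1.26 ± 0.36, adjusted p = 0.0346); that call held in 11 of 24 alternative fits and was lost on leaving out any library other than DMSO replicate 1, CS replicate 1 or KPT-330 with CS replicate 1 (-1.31 to -1.03, adjusted p = 0.065 to 0.104).

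A drug's effect changed sign, with both effects and the interaction called, in 151 genes for CS and in 230 for KPT-330. Of the 151, CS lowered 66 without KPT-330 and raised them with it, and did the opposite in 85. Of the 230, KPT-330 lowered 129 without CS and raised them with it, and did the opposite in 101. RGS1 and GABARAPL1 were among the leading genes of both kinds. MDK and STARD4-AS1 were among those that CS raised without KPT-330 and lowered with it, and FAM9B among those that KPT-330 lowered alone and raised with CS. With GC correction over all libraries these numbers were 487 and 497, and with correction within groups 800 and 931. Without single libraries they ranged from 73 (CS replicate 2) to 308 (DMSO replicate 1) for CS and from 141 (KPT-330 replicate 3) to 431 (DMSO replicate 1) for KPT-330.

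Genes of DNA replication and the G1/S transition lay below additivity, 35 of 47 tested and none above. For this and every later list, 8.04% of all 19460 genes tested lay above additivity and 6.62% below. After GC correction over all libraries 2162 and 2959 of the 19460 did, and within groups 3457 and 3541. The list's median interaction was -0.54, against 0.01 over all genes. The list's median change was -0.07 with CS alone, -0.02 with KPT-330 alone and -0.63 with both. CDC45 (ENSG00000093009, chr22:19479459-19520612), part of the replicative helicase, had 129, 116 and 104 CPM in DMSO, 93.8, 104 and 112 in CS, 109, 105 and 109 in KPT-330 and 42.5, 41.6 and 39.4 with both. Its first 3 groups overlapped, and all libraries with both drugs lay under 45 CPM (-1.21 ± 0.11, adjusted p = 2.81e-05).

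E2F1, the transcription factor that drives G1/S genes, had 77.5, 66.8 and 56 CPM in DMSO, 61, 68.7 and 84 in CS, 95.2, 97.5 and 101 in KPT-330 and 55.4, 50.7 and 43.6 with both. KPT-330 alone raised E2F1 by 0.55 ± 0.13 and both drugs changed it by -0.42 ± 0.13 (-1.07 ± 0.18, adjusted p = 0.0019). GC correction brought the E2F1 interaction to -0.66 (adjusted p = 0.000147). The thymidine kinase gene TK1 had means of 54.3, 57.9, 69.6 and 30.6 CPM (-1.28 ± 0.33, adjusted p = 0.0219) and the replication licensing gene CDT1 18.8, 17.2, 23.1 and 9.99 CPM (-1.08 ± 0.33, adjusted p = 0.0457). TK1 lost its call without DMSO replicate 2 or 3, CS replicate 2 or 3 or KPT-330 replicate 3 (-1.32 to -1.08, adjusted p = 0.0525 to 0.0762), and CDT1 without any library other than DMSO replicate 1, CS replicate 1 or KPT-330 with CS replicate 1 (-1.12 to -0.86, adjusted p = 0.0838 to 0.127). The GC-corrected interaction of CDT1 was -0.60. POLD1 (-1.24 ± 0.48, adjusted p = 0.105), a DNA polymerase subunit, and MCM5 (-0.97 ± 0.31, adjusted p = 0.0501), of the replicative helicase, did not pass. POLD1 did in 3 of 24 alternative fits and MCM5 in 10, both among them with GC correction (-0.81 and -0.80). Leaving out libraries in turn gave 28 to 38 called genes of the 47, and GC correction 45.

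The promoter of E2F1 is shown because E2F factors act on their own gene and on this list. The stretch holds 100 bases before the RefSeq start (GRCh38.p14, chr20:33686386-33686485, minus strand), with E2F letters in capitals.
E2F1: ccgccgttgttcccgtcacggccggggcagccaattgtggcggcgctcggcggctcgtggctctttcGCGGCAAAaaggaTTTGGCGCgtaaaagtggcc
Searching both strands for TTTCCCGC, TTTGGCGC, TTTCGCGC or TTTGCCGC from 250 bases before to 50 after the start found a match in 48.7% of the 39 replication genes with a promoter in the RefSeq table. It found one in 5.37% of the promoters of 11534 tested genes, 9.98% of 922 genes below additivity and 4.84% of 1094 above. CDC45 and TK1 had no match in this window, and MCM6, whose interaction was not called, had 4. A match is a description of the letters and not a bound site.

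Mitotic genes departed in the same direction from another starting point, with a median change of -0.80 for KPT-330 alone. Of 32 tested G2/M genes, 26 lay below additivity and none above, with a median of -0.56. The median change was -0.13 for CS alone and -0.66 for CS with KPT-330, and -1.55 for both drugs against DMSO. AURKB (ENSG00000178999, chr17:8204733-8210600), the kinase of the chromosomal passenger complex, had 72.7, 55.7 and 50.03 CPM in DMSO, 52.9, 59.8 and 68.3 in CS, 42.2, 41.5 and 45.6 in KPT-330 and 22.1, 20.7 and 18.6 with both. DMSO and CS overlapped, KPT-330 lay just under them, and the combination was lowest (-1.10 ± 0.18, adjusted p = 0.00154).

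Its partners in that complex moved alike. BIRC5 (survivin) had 106 ± 11.6, 97.5 ± 13.1, 63.9 ± 2.46 and 28.1 ± 3.67 CPM (-1.06 ± 0.16, adjusted p = 0.000716), and INCENP, the scaffold, 79.6 ± 13.9, 76.7 ± 11, 67.8 ± 2.85 and 34.6 ± 6.23 CPM (-0.92 ± 0.20, adjusted p = 0.00939; lost with no filter). PLK1, a kinase needed for spindle assembly, had 182, 156 and 139.6 CPM in DMSO, 123, 134 and 155 in CS, 119, 119.8 and 121 in KPT-330 and 59.4, 52.5 and 48.1 with both (-0.95 ± 0.15, adjusted p = 0.00109). Every PLK1 library with both drugs lay under 60 CPM and every other above 100. CDC25C, the phosphatase that activates CDK1 (-0.32 ± 0.11, adjusted p = 0.0553), and TTK, a spindle checkpoint kinase (-0.29 ± 0.12, adjusted p = 0.131), did not pass; with GC correction both did (-0.40 and -0.44). Leaving out libraries in turn gave 20 to 27 called genes of the 32, and after GC correction all 32 lay below additivity.

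Promoters of PLK1 (chr16:23678789-23678888, plus strand) and INCENP (chr11:62123911-62124010, plus strand) are shown with the CHR element TTTGAA in capitals, since DREAM-type complexes at this element control mitotic genes. Each holds 100 bases before the RefSeq start on GRCh38.p14.
PLK1: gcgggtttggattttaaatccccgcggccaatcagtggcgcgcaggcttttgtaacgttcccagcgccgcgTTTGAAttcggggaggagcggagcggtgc
INCENP: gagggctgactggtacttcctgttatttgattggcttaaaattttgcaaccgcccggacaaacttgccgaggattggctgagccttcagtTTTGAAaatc
TTTGAA on either strand occurred from 250 bases before to 50 after the start in 66.7% of 27 G2/M genes, in 10.3% of all tested genes with a promoter, in 15.6% of those below additivity and in 10.4% of those above. AURKB had no match to these letters in this window.

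Genes of homologous recombination and the Fanconi pathway, which repair double-strand breaks and crosslinks, lay below additivity in 19 of 39 and above in 1, with a median of -0.41. RAD54L, a motor protein of strand exchange, had 46.8, 47 and 45.2 CPM in DMSO, 45.3, 47.3 and 49.9 in CS, 44.6, 43.3 and 45.7 in KPT-330 and 26.8, 24.6 and 26.1 with both (-0.82 ± 0.08, adjusted p = 5.24e-05). Its first 3 groups overlapped and the combination lay below them all. EXO1, a nuclease that resects DNA ends, had 141 ± 11.8, 125 ± 4.55, 141 ± 2.08 and 76.3 ± 2.44 CPM (-0.72 ± 0.09, adjusted p = 0.00019). FANCA, of the Fanconi core complex, had 113 ± 15.5, 112 ± 10.1, 123 ± 1.5 and 70.2 ± 5.22 CPM (-0.80 ± 0.13, adjusted p = 0.00167). BRCA1 had 99.1 ± 9.7, 114 ± 5.75, 92.4 ± 0.495 and 71.2 ± 5.2 CPM (-0.58 ± 0.10, adjusted p = 0.0028): CS alone did not pass (0.20 ± 0.07), and with KPT-330 it changed BRCA1 by -0.38 ± 0.07.

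XRCC3, a recombination protein, also lay below additivity (35.9, 37.4, 47.8 and 24.6 CPM, -1.02 ± 0.26, adjusted p = 0.0207), and lost its call without DMSO replicate 2 or 3, CS replicate 2, KPT-330 replicate 2 or KPT-330 with CS replicate 3 (-1.04 to -0.87, adjusted p = 0.0505 to 0.0755) or with no filter. Its GC-corrected interaction was -0.54. MUS81 (-0.76 ± 0.29, adjusted p = 0.0943), a structure-specific nuclease, did not pass, but did with GC correction (-0.57, adjusted p = 0.0105). The 1 gene above was FANCF (0.27, adjusted p = 0.0436), named after its value was seen, whose GC-corrected interaction was 0.14. Its call was lost in 19 of 24 alternative fits, among them DESeq2, limma voom, the replicate block and the omission of any library other than DMSO replicate 1 or CS replicate 1 (0.23 to 0.29, adjusted p = 0.0665 to 0.127). With GC correction 33 of the 39 lay below and none above.

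Of 20 genes of the DNA damage checkpoint 6 lay below additivity and none above (median -0.17). After GC correction 11 lay below and none above, and with correction within groups 11 below and 6 above. CLSPN, the claspin adaptor that lets ATR activate CHK1, had 114, 134 and 143 CPM in DMSO, 122, 116 and 105 in CS, 76.3, 76.6 and 78.9 in KPT-330 and 37.9, 39.6 and 40.6 with both (-0.78 ± 0.11, adjusted p = 0.000535). The combination lay below KPT-330 and KPT-330 below the rest, without overlap. TIMELESS, of the fork protection complex, had 207 ± 12.6, 229.6 ± 17.5, 235 ± 5.5 and 169 ± 8.33 CPM (-0.62 ± 0.09, adjusted p = 0.000821), and WEE1, a kinase that inhibits CDK1, 396 ± 41.6, 354 ± 22.2, 272 ± 4.68 and 174 ± 12.8 CPM (-0.49 ± 0.11, adjusted p = 0.0106). CHEK1 itself had 119 ± 9.34, 109 ± 4.24, 101 ± 3.45 and 76.8 ± 4.18 CPM and did not pass (-0.28 ± 0.09, adjusted p = 0.0599). It was called in 7 of the 24 alternative fits, among them GC correction over all libraries (-0.42). H2AFX, for the histone variant phosphorylated at breaks, had 13.7, 14, 14.7 and 6.73 CPM (-1.16 ± 0.32, adjusted p = 0.0274), with a call that held in 12 of 24 fits and was lost on leaving out any library other than DMSO replicate 1, CS replicate 1 or KPT-330 with CS replicate 1 (-1.19 to -0.96, adjusted p = 0.0565 to 0.094). GC correction brought it to -0.57.

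Replication-dependent histone genes went the other way, 13 of 44 above additivity and 1 below, with a median of 0.30 (14 and 2 after GC correction). Their median change was -0.88 with CS alone, -0.05 with KPT-330 alone and -0.60 with both. Histone genes share long stretches of sequence and many of their messages have no poly(A) tail, so single values are uncertain. HIST2H2BE had 38.5, 37.8 and 39.1 CPM in DMSO, 24, 24.7 and 26.9 in CS, 34.8, 36 and 34.6 in KPT-330 and 57.8, 61 and 61.8 with both (1.39 ± 0.08, adjusted p = 8.84e-07). It was lowest in CS and highest with both drugs, without overlap. HIST1H2AK had means of 1.63, 0.783, 1.23 and 2.21 CPM (1.88 ± 0.25, adjusted p = 0.000365) and HIST1H3B 0.907, 0.469, 0.419 and 0.908 CPM (2.06 ± 0.34, adjusted p = 0.00173). The gene below additivity, named after its value was seen, was HIST1H2BJ (54.5, 26.7, 64.9 and 22.5 CPM, -0.50 ± 0.11, adjusted p = 0.0101).

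**Figure D5:**
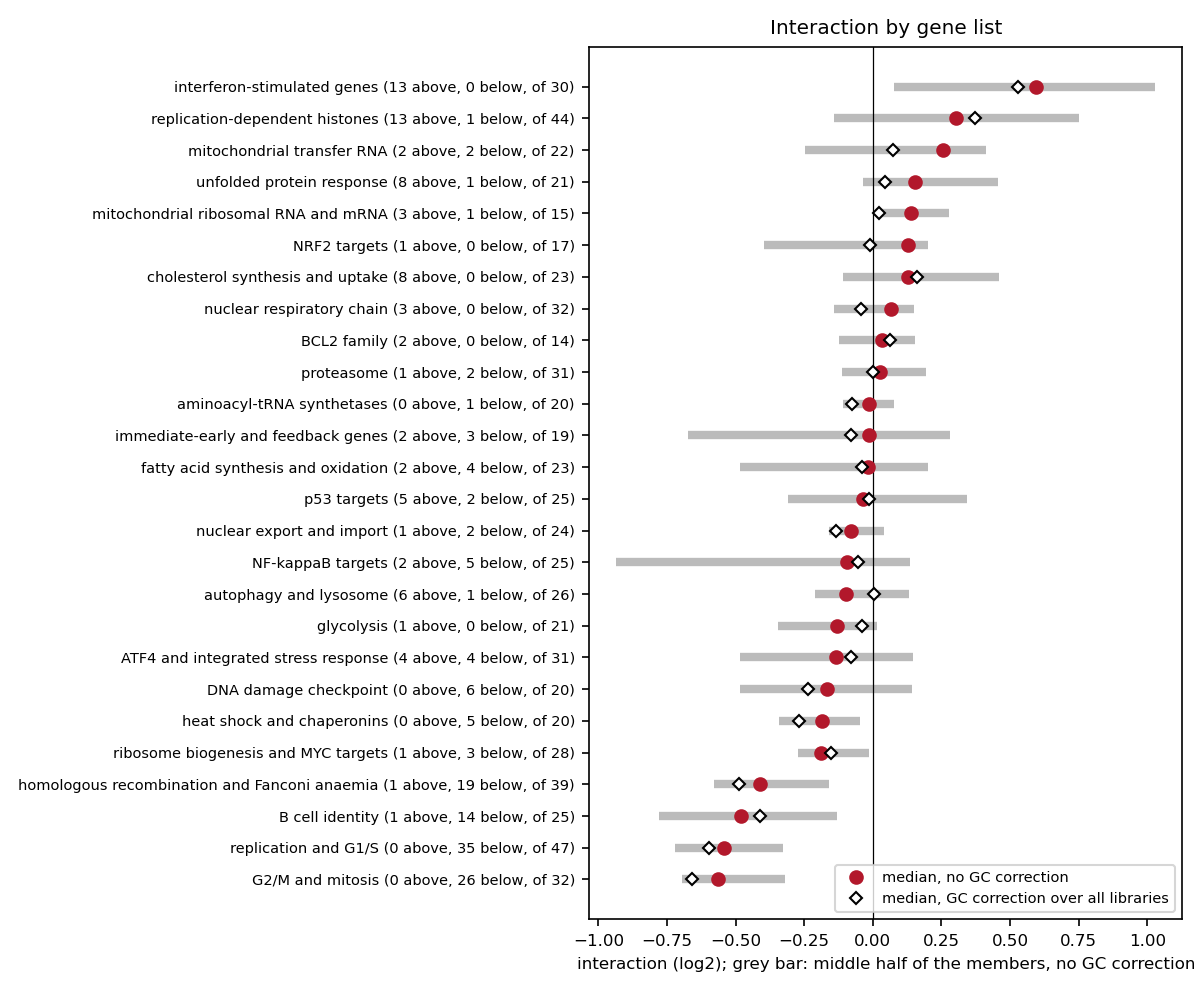
Median interaction (log2, horizontal axis) of each gene list with at least 3 tested members that is not a marker list for another cell type, without (red) and with (white) GC correction over all libraries; grey bars span the interquartile range of the members. Interferon-stimulated genes and histones lie highest and the replication, mitosis, B cell and recombination lists lowest, with either treatment of GC content.

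Interferon-stimulated genes lay above additivity in 13 of 30 and below in none, with a median of 0.59 (0.53 after GC correction, when 15 lay above and 1 below). These genes encode antiviral proteins that type I interferon induces. The median change was -0.15 with CS alone and -0.13 with KPT-330 alone, and 0.26 with both. IFIT2, for an RNA-binding antiviral protein, had 0.452, 0.416 and 0.728 CPM in DMSO, 0.345, 0.207 and 0.189 in CS, 0.324, 0.297 and 0.193 in KPT-330 and 1.41, 1.52 and 1.64 with both. Both drugs lowered it alone, and the combination lay above all other libraries (3.61 ± 0.43, adjusted p = 0.000169).

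The related IFIT5 had 0.472, 1 and 0.776 CPM in DMSO, 0.529, 0.517 and 0.395 in CS, 0.457, 0.772 and 0.682 in KPT-330 and 2.33, 1.41 and 2.37 with both (2.33 ± 0.43, adjusted p = 0.00349). IFIT3 had means of 1.73, 0.925, 0.572 and 1.16 CPM (1.92 ± 0.26, adjusted p = 0.000396) and stayed below DMSO with both drugs. IFI6, a mitochondrial protein induced by interferon, had 0.556, 0.294, 0.489 and 0.816 CPM (1.67 ± 0.39, adjusted p = 0.0131). IFIT1 (3.25 ± 1.05, adjusted p = 0.054) and IFI44 (0.94 ± 0.34, adjusted p = 0.0805) did not pass; IFIT1 did with GC correction (3.12, adjusted p = 0.0315), and IFI44 with correction within groups. Apart from OAS1, these named genes were at low levels, under 3 CPM in every group mean. IFIT1, IFIT2 and IFIT3 lie inside the span of LIPA, which has its own reads.

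Promoters of IFIT3 (chr10:89327827-89327996, plus strand) and IFIT5 (chr10:89414468-89414567, plus strand) are shown because both genes lay above additivity and carry the interferon-stimulated response element (TTTC, NN, then TTTC, on either strand), in capitals. They run up to the RefSeq start on GRCh38.p14, over 170 and 100 bases.
IFIT3: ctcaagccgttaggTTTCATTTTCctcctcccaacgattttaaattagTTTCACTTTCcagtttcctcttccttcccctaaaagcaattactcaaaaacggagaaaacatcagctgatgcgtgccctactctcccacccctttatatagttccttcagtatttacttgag
IFIT5: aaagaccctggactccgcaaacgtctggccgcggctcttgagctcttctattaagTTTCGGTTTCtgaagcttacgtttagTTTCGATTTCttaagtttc
The element occurred from 250 bases before to 50 after the start in 65.2% of 23 genes of the list and in 3.03% of all tested genes with a promoter, in 4.02% of those above additivity and in 2.49% of those below. OAS1 had no match to these letters in this window.

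Of 21 unfolded protein response genes, 8 lay above additivity and 1 below, with a median change of -0.71 for KPT-330 alone. The median interaction was 0.15, or 0.04 after GC correction with 7 above and 2 below. XBP1, the transcription factor spliced by IRE1, had 20.4, 21.7 and 22.5 CPM in DMSO, 20.9, 19.7 and 17.9 in CS, 8.64, 9.39 and 7.98 in KPT-330 and 14.4, 14.4 and 15 with both. KPT-330 alone was lowest and the combination lay between it and DMSO, without overlap (0.89 ± 0.12, adjusted p = 0.000373). HSPA5, the chaperone BiP, had 414, 452 and 483 CPM in DMSO, 320.2, 315 and 297 in CS, 159, 165 and 163 in KPT-330 and 178, 184 and 198 with both. CS changed HSPA5 by -0.53 ± 0.06 without KPT-330 and by 0.20 ± 0.06 with it (0.74 ± 0.09, adjusted p = 0.000191).

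ERN1, which encodes IRE1, had 17.5 ± 0.806, 17 ± 1.07, 13.4 ± 0.558 and 20.7 ± 0.727 CPM (0.67 ± 0.11, adjusted p = 0.0012). The exception below additivity was SYVN1, a ubiquitin ligase of endoplasmic reticulum degradation, at 130.2, 146, 192 and 135 CPM (-0.67 ± 0.18, adjusted p = 0.0233). Its call was lost with no filter and without DMSO replicate 2 or 3, CS replicate 2 or 3, KPT-330 replicate 1 or 3, or KPT-330 with CS replicate 2 or 3 (-0.68 to -0.55, adjusted p = 0.052 to 0.0731). DNAJB9 (0.41 ± 0.19, adjusted p = 0.173) and SDF2L1 (-0.70 ± 0.68, adjusted p = 0.525), both chaperone cofactors, did not pass, nor with GC correction over all libraries (0.23 and -0.26); DNAJB9 did with correction within groups.

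Promoters of HSPA5 (chr9:125241344-125241443, minus strand) and XBP1 (chr22:28800570-28800669, minus strand) are shown for the element bound by ATF6 with NF-Y, CCAAT followed by any 9 bases and CCACG on either strand, in capitals. Both hold 100 bases before the RefSeq start on GRCh38.p14.
HSPA5: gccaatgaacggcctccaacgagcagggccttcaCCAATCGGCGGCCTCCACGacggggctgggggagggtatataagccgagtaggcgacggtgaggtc
XBP1: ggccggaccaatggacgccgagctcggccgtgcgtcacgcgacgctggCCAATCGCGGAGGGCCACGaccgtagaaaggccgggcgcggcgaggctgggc
A match from 250 bases before to 50 after the start was found in 30% of 20 genes of the list and in 0.121% of all tested genes with a promoter. Of the called genes with a promoter, 5 of 1094 above additivity (0.457%) and 0 of 922 below had one. HSP90B1, HSPA5 and XBP1, members of the list itself, are among the 5, so the counts are no separate result. ERN1 and SYVN1 had no match.

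Of 23 cholesterol synthesis and uptake genes, 8 lay above additivity and none below (median 0.13, or 0.16 after GC correction with 10 above). HMGCS1, which makes HMG-CoA at the head of the pathway, had 250.2, 282 and 309.9 CPM in DMSO, 322, 306 and 288 in CS, 135, 143 and 139 in KPT-330 and 223, 231 and 249 with both (0.63 ± 0.11, adjusted p = 0.00188). KPT-330 lowered HMGCS1 alone and CS raised it in its presence, as in the next 3 genes. MSMO1, a sterol oxidase, had 60.5 ± 7.08, 66.9 ± 3.98, 33.8 ± 1.82 and 59.5 ± 3.71 CPM (0.67 ± 0.12, adjusted p = 0.00275). INSIG1, which holds SREBP in the endoplasmic reticulum when sterols are high, had 90.3 ± 5.88, 97.5 ± 2.39, 52.1 ± 1.01 and 82.1 ± 1.66 CPM (0.54 ± 0.08, adjusted p = 0.000553). STARD4, a sterol carrier, had 46.8 ± 5.6, 52.7 ± 1.56, 27.4 ± 0.787 and 44.5 ± 2.35 CPM (0.53 ± 0.11, adjusted p = 0.00771, GC-corrected 0.32). HSD17B7 (0.31 ± 0.10, adjusted p = 0.0551) and MVD (-0.36 ± 0.35, adjusted p = 0.529), also of the pathway, did not pass, nor with GC correction over all libraries (0.16 and 0.10, the latter of the other sign), but both did with correction within groups. Scaled by library size alone, 1 gene of the list lay below additivity.

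B cell identity genes lay below additivity in 14 of 25 and above in 1, with a median of -0.48 (20 below and 1 above after GC correction, median -0.41). Their median change was 0.17 with CS, 0.31 with KPT-330 and 0.03 with both. CD22, an inhibitory coreceptor of B cells, had 15, 13.8 and 13.3 CPM in DMSO, 28.7, 32.8 and 32.7 in CS, 44.8, 43.9 and 45.4 in KPT-330 and 38.9, 38.7 and 35.9 with both. Each drug raised CD22 alone, and both together raised it less than KPT-330 did (-1.40 ± 0.10, adjusted p = 3.29e-06).

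SPIB, an ETS transcription factor of B cells, was lowest with both drugs, at 116 ± 15, 117 ± 9.84, 91 ± 1.4 and 38.8 ± 3.06 CPM (-1.25 ± 0.13, adjusted p = 5.84e-05). FCER2 (CD23) was at a low level, 0.301, 0.724, 0.496 and 0.284 CPM (-2.10 ± 0.41, adjusted p = 0.00477). The signalling subunits CD79A (-0.78 ± 0.34, adjusted p = 0.146) and CD79B (-0.71 ± 0.29, adjusted p = 0.12) did not pass, but did with GC correction (-0.48, adjusted p = 0.0499, and -0.41, adjusted p = 0.00522). The gene above additivity was BCL6, a repressor of germinal centre B cells, named after its value was seen, with 2.03, 1.86, 1.72 and 3.68 CPM (1.21 ± 0.28, adjusted p = 0.013); its call was lost without the 3 libraries of lowest GC slope. In bulk RNA, fewer cells of a type and less RNA per cell cannot be told apart.

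Markers of other cell types were low, and their sums differed between groups. For T cells the summed level of its 9 genes was 15.4 to 16.2 CPM in DMSO, 11 to 13.3 in CS, 31.2 to 32.4 in KPT-330 and 11.1 to 11.4 with both drugs, and none of the 9 was at 0 in all libraries. Its 1 called gene of 7 tested was TRAC, the T cell receptor alpha constant gene, with 11.1 ± 0.52, 8.24 ± 0.612, 17.4 ± 1 and 3.56 ± 0.378 CPM (-1.85 ± 0.14, adjusted p = 5.12e-06). Over the same groups the 6 B cell markers summed to between 1783 and 2559 CPM. The 5 erythroid genes summed to at most 0.06 CPM, with HBB and ALAS2 at 0 in all libraries. The 7 myeloid genes, with MPO at 0, summed to 3.35 to 5.46 CPM in DMSO and to between 2.18 and 2.63 elsewhere. LYZ, the lysozyme gene, was called among them (2.1, 1.1, 0.712 and 0.997 CPM, 1.46 ± 0.35, adjusted p = 0.0143). The 5 epithelial genes, with KRT19 at 0, summed to 0.611 to 0.965 CPM in DMSO, 0.756 to 0.874 in CS, 2.4 to 3.34 in KPT-330 and 1.71 to 2.35 with both. The 5 fibroblast genes summed to 0.873 to 1.76 CPM in DMSO, 0.897 to 1.41 in CS, 2.65 to 3.01 in KPT-330 and 1.63 to 2.67 with both, and the collagen gene COL1A1 was called (0.0775, 0.0975, 0.286 and 0.0564 CPM, -2.68 ± 0.70, adjusted p = 0.0232). Whether other cells had a part in the results was not tested.

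Of 14 BCL2 family genes 2 lay above additivity and none below (3 and 1 after GC correction), against 8.04% and 6.62% of all genes. Besides BMF it was PMAIP1 (NOXA), with 110.5, 121 and 131 CPM in DMSO, 113, 106 and 102 in CS, 84.9, 85.5 and 84.9 in KPT-330 and 112, 117 and 122 with both (0.64 ± 0.09, adjusted p = 0.000655). KPT-330 alone lowered PMAIP1, and no difference from DMSO was called with both drugs. BAD (-0.75 ± 0.43, adjusted p = 0.26) and BIK (-0.86 ± 0.31, adjusted p = 0.085), also BH3-only proteins, did not pass, nor with GC correction over all libraries (-0.19 and -0.70), but both did with correction within groups. Of 26 autophagy and lysosome genes 6 lay above and 1 below, and the list's median was -0.10 although more members were called above. With GC correction 8 lay above and 4 below, and the median was 0.01. WIPI1, which marks forming autophagosomes, had 3.48 ± 0.0787, 3.78 ± 0.293, 1.34 ± 0.206 and 2.8 ± 0.12 CPM (0.95 ± 0.18, adjusted p = 0.00439). LAMP2, a lysosomal membrane protein, had 72 ± 7.79, 65.8 ± 2.97, 56.2 ± 0.946 and 74.5 ± 2.99 CPM (0.54 ± 0.10, adjusted p = 0.00401, GC-corrected 0.35). The gene below additivity in this list was LAMP1, named after its value was seen. Its interaction was -0.38 (adjusted p = 0.0457 in the same quasi-likelihood test). The LAMP1 call was lost with the replicate block. LAMP1 is a lysosomal membrane protein gene like LAMP2. The log2 change of LAMP1 was -0.18 with CS, -0.18 with KPT-330 and -0.74 with both.

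Of 31 genes of the ATF4 pathway 4 lay above additivity and 4 below (5 and 6 after GC correction). Over all 19460 genes tested 8.04% lay above and 6.62% below, and after GC correction 2162 and 2959 genes did. DDIT4 (REDD1), which restrains mTORC1, had 6.45, 5.41 and 5.67 CPM in DMSO, 3.77, 3.95 and 4.22 in CS, 5.12, 5.58 and 5.77 in KPT-330 and 11.7, 11.2 and 9.96 with both. CS lowered DDIT4 without KPT-330 and raised it with it (1.55 ± 0.15, adjusted p = 4.1e-05). The 4 genes below were ATF5 (-0.65), GPT2 (-0.64), SLC7A1 (-0.49) and DDIT3 (-0.32), and GC correction over all libraries lost the ATF5 call (-0.33). Log2 changes with CS, KPT-330 and both drugs were 1.06, 1.64 and 2.06 for ATF5 and 0.40, 1.30 and 1.06 for GPT2. They were 0.43, 0.10 and 0.04 for SLC7A1 and 0.39, 1.48 and 1.55 for DDIT3. With the replicate block 3 genes of the list lay above and 3 below. Of 25 p53 targets 5 lay above and 2 below (median -0.03; 6 and 5 after GC correction). RRM2B, the p53-induced ribonucleotide reductase subunit, lay above (40.8 ± 5.22, 36.2 ± 3.07, 30.9 ± 0.284 and 43.2 ± 2.48 CPM, 0.66 ± 0.13, adjusted p = 0.00438), and AEN, an apoptosis-enhancing nuclease, below (85.6 ± 10.8, 83.9 ± 7.22, 71.9 ± 2.52 and 36.9 ± 2.21 CPM, -0.93 ± 0.13, adjusted p = 0.000396). BAX, a pore-forming effector of apoptosis, did not pass (-0.69 ± 0.30, adjusted p = 0.144), but did in 4 of 24 alternative fits, GC correction among them (-0.43, adjusted p = 0.00617).

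CDKN1A (p21), the p53-induced inhibitor of cyclin-dependent kinases, had 7.84, 6.7 and 5.53 CPM in DMSO, 9.41, 10.8 and 10.9 in CS, 8.28, 8.04 and 8.54 in KPT-330 and 9.44, 8.19 and 6.89 with both. CS raised CDKN1A without KPT-330 by 0.63 ± 0.14, and with KPT-330 its effect was -0.02 ± 0.14 (-0.65 ± 0.19, adjusted p = 0.039). The call held in 13 of 24 alternative fits and was lost on leaving out any library other than DMSO replicate 1, CS replicate 1 or KPT-330 with CS replicate 1 (-0.68 to -0.54, adjusted p = 0.0707 to 0.0926). GC correction kept the call at -0.42.

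The mitochondrial ribosomal RNAs lay above additivity. MT-RNR2 had 10310, 11610 and 12840 CPM in DMSO, 12080, 11420 and 10740 in CS, 13240, 13340 and 12830 in KPT-330 and 22420, 23090 and 25240 with both (0.87 ± 0.11, adjusted p = 0.000345), and MT-RNR1 means of 796, 718, 691 and 1058 CPM (0.76 ± 0.11, adjusted p = 0.000536). The libraries with both drugs lay above all others. Together both ribosomal RNAs took 2.61% ± 0.12 of the counts with both drugs, and with DMSO 1.15% ± 0.10, with CS 1.18% ± 0.06, with KPT-330 1.44% ± 0.03. Of the 15 mitochondrial ribosomal and messenger RNAs tested 3 lay above and 1 below (5 and 4 after GC correction). The gene below was MT-ND6, the message on the other strand of the mitochondrial genome (526 ± 56.7, 621 ± 55.5, 547 ± 16.5 and 423 ± 38.3 CPM, -0.61 ± 0.12, adjusted p = 0.00614). Of the 22 mitochondrial tRNA genes 2 lay above, MT-TV and MT-TW, and 2 below (2 and 5 after GC correction). The 2 below were MT-TC (-0.74) and MT-TY (-0.87). Both calls were lost with the replicate block and without CS replicate 2, KPT-330 replicate 1 or KPT-330 with CS replicate 2.

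Of 25 NF-κB targets 2 lay above additivity and 5 below (median -0.09), against 8.04% and 6.62% of all genes. NFKBIE, an IκB protein gene, had 25.1 ± 5.61, 25.5 ± 2.35, 32.4 ± 1.88 and 16.6 ± 1.74 CPM (-0.99 ± 0.19, adjusted p = 0.00427, GC-corrected -0.63). The chemokine gene CCL22 had means of 2.98, 2.06, 1.31 and 0.0156 CPM, the last from 2 reads over 3 libraries, so no fold is given. CCL4, another chemokine gene, was lowered by KPT-330 alone and raised by CS in its presence (2.73, 2.32, 0.593 and 1.23 CPM, 1.27 ± 0.30, adjusted p = 0.014). PTGS2, the inducible cyclooxygenase that salicylates are often tied to, had 0 reads in the 12 libraries, which allows up to 3.

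Of 24 nuclear transport genes 1 lay above additivity and 2 below (median -0.08), but after GC correction 2 lay above and 11 below (median -0.14). Over all 19460 genes these counts were 1565 and 1288, and after GC correction 2162 and 2959. XPO1, the target of KPT-330, had 749.9, 863 and 923 CPM in DMSO, 943, 882 and 842 in CS, 1556, 1619 and 1551 in KPT-330 and 1471, 1501 and 1624 with both. KPT-330 raised XPO1 by 0.90 ± 0.07 without CS and 0.78 ± 0.07 with it, and the interaction did not pass (-0.11 ± 0.10, adjusted p = 0.501), although it did in the 3 GC-corrected fits (-0.28 with correction over all libraries). KPNA2, an importin alpha, fell by 1.64 with KPT-330 alone and by 2.65 with both (454 ± 25.8, 354 ± 10.5, 145 ± 3.11 and 72.1 ± 2.54 CPM, -0.65 ± 0.08, adjusted p = 0.000153). RANBP1, a RAN regulator, had 229.8 ± 25.6, 200.2 ± 15.9, 216 ± 6.83 and 117 ± 8.13 CPM (-0.69 ± 0.12, adjusted p = 0.00194).

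Of 20 heat shock and chaperonin genes 5 lay below additivity and none above (median -0.18), and after GC correction 13 and none (median -0.27). Among them was STIP1, a cochaperone of HSP90, at 648 ± 6.45, 563 ± 13.3, 547 ± 12.6 and 339 ± 3.89 CPM (-0.49 ± 0.06, adjusted p = 0.000313); that call was lost in both fits with GC correction over all libraries. The other lists are given as counts above and below additivity, before and after GC correction. Over all 19460 genes tested these were 1565 (8.04%) and 1288 (6.62%), and then 2162 and 2959. List counts near those shares are no result about a list. Of 28 genes of ribosome biogenesis 1 lay above and 3 below, and after correction 1 and 17. Of 20 aminoacyl-tRNA synthetases 0 and 1 were called, and then 1 and 6. Of 31 proteasome genes 1 and 2 were called, and then 3 and 6. Of 32 nuclear genes of the respiratory chain 3 and 0 were called, and then 4 and 4. Of 21 glycolysis genes it was 1 and 0, then 3 and 3, and of 17 NRF2 targets 1 and 0, then 3 and 1. Of 23 genes of fatty acid synthesis and oxidation 2 and 4 were called, then 5 and 6, and of 19 immediate-early and feedback genes 2 and 3, then 4 and 5.

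Cyclin D1 and SOX11, which mark the tumour, had no called interaction. CCND1 had 429 ± 144, 446 ± 110.2, 544 ± 12.2 and 461 ± 103 CPM (-0.29 ± 0.31, adjusted p = 0.57), and SOX11, a transcription factor of mantle cell lymphoma, 86.1 ± 6.08, 94 ± 2.27, 83.2 ± 2.34 and 94.7 ± 2.28 CPM (0.06 ± 0.08, adjusted p = 0.652, GC-corrected 0.00). MDM2, the ubiquitin ligase of p53, had 88.8 ± 9.29, 84.9 ± 4.05, 89 ± 3.48 and 90.2 ± 6.11 CPM (0.09 ± 0.11, adjusted p = 0.634, GC-corrected -0.07). CCNE2, a cyclin of the G1/S transition, was raised by KPT-330 alone (0.98 ± 0.11) and not with CS present (0.14 ± 0.11, adjusted p = 0.341), with 10.7 ± 1.71, 10.5 ± 0.968, 21 ± 1.33 and 11.6 ± 0.617 CPM and an interaction of -0.84 ± 0.16, adjusted p = 0.00418. MYC had 199.6 ± 19.5, 224 ± 16.7, 334 ± 1.76 and 490.3 ± 30.6 CPM (0.38 ± 0.11, adjusted p = 0.0289); each library with both drugs lay above all others. Its call held in 12 of 24 fits, not after GC correction over all libraries (0.33, adjusted p = 0.0641), nor without DMSO replicate 2, CS replicate 1 or 2, any KPT-330 library or KPT-330 with CS replicate 1 or 2 (0.33 to 0.39, adjusted p = 0.0578 to 0.0746).

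Several named genes overlap another tested gene that has at least 10% of their reads. They are ANKRD37, TP53INP1, IQCD, TSHR, ERO1LB, YBX2, PKMYT1, LIX1, STARD4-AS1, RAB15, TP73, CDC42BPB, CHI3L2, FANCA, RAD54L, XRCC3, CHEK1, XBP1, SYVN1, SPIB, TRAC, WIPI1, RANBP1, CCNE2, MDM2, BAD, MUS81, POLD1, DNAJB9, HIST2H2BE and HIST1H2AK. The library kit does not mark the strand of a read, so reads of such pairs may not be told apart and these values are less certain.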

How the data were processed

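RNA of 12 libraries was sequenced from JEKO-1 cells, 3 in each of 4 groups taken from the labels. The deposited values are whole counts per gene. Per the submitters' processing notes and the series design text, the authors aligned reads to hg38 with STAR and counted them per Ensembl gene; the strand setting is not given in the sources used here. No value column lacked a sample (0).

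Of 64253 genes, 28113 had no count and 19460 passed edgeR's filterByExpr by group. The counts were fitted in 1 model with 4 groups (edgeR 4.0.16 in R 4.3.3, TMM scaling, robust quasi-likelihood test, 8 residual degrees of freedom). Adjusted p-values are Benjamini-Hochberg values over all genes tested. The SE is the log2 change divided by the square root of F. GC correction removed a lowess trend of span 0.3, over all libraries or within groups. The test was also run on simulated counts. There each gene had the same spread in all groups, and the interaction had no GC trend. That run therefore cannot speak to the unlike spread and GC slopes of these groups.

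Genes named are the 5 with the largest interaction of each form and direction at 5 CPM or more, up to 4 called and 2 uncalled members of each list, and 10 chosen genes. SNX29P2, listed under 2 identifiers, is not described. Some genes that this rule names are not reported here. The members and lists were chosen with earlier results of these data known. The 24 alternative fits used other filters, scalings and tests (DESeq2 1.42.0, limma 3.58.1 and edgeR's likelihood ratio test), a replicate block, GC correction, and each library left out. Promoter windows come from RefSeq on GRCh38.p14 and were matched by symbol for 11534 of the tested genes.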

Additional observations from a re-analysis of the deposited data

How the results depend on the processing

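No called interaction of the 562 of at least 1 in size changed sign in an alternative fit that tested the gene. These fits reuse the same libraries, so a kept sign says little about new ones. Fewer kept their call in the same direction: 397 (without DMSO replicate 2) to 527 (without DMSO replicate 1) on leaving out single libraries. With the stricter filter 417 did, with the replicate block 442 and with GC correction over all libraries 538. The numbers of genes above and below additivity, 1565 and 1288, became 3457 and 3541 with GC correction within groups, and 2959 lay below with GC correction over all libraries. Leaving out single libraries gave 885 to 2639 above and 828 to 2072 below, highest without DMSO replicate 1. By at least 1, 542 lay below with GC correction within groups, and 247 to 640 on leaving out libraries.

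Short of the sum held 183 genes with the likelihood ratio test, 198 with GC correction within groups and 82 to 255 without single libraries. Cancelled held 245 with GC correction within groups and 98 to 306 without single libraries. With a limit of 0.25 for a small effect, 45 were emergent, 71 cancelled and 167 reversals, and with 0.75 there were 225 cancelled, 26 reversals and 13 offset. The stricter filter left 41 reversals. Offset genes numbered 16 to 32 without single libraries (16 without DMSO replicate 2) and 18 without the 3 libraries of lowest GC slope. The CS effect changed sign in 98 genes with limma voom, 487 with GC correction over all libraries, 800 within groups and 73 to 308 without single libraries. For KPT-330 these were 497, 931 and 141 to 431. The causes were not tested.

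Replicate numbers were not shown to pair the libraries: over 18 same-numbered pairs the correlation of deviations lay between -0.38 and 0.40, over 0.1 in 2, and between -0.42 and 0.40 for other pairs. With a replicate block 1031 genes lay above additivity and 927 below, and the CS effect changed sign in 90. With the block and GC correction, 1944 lay above and 2749 below, and signs changed in 416 genes for CS and 440 for KPT-330.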

Other observations

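The 562 genes with a called interaction of at least 1 in size were also counted by gene class. Of the long intergenic and antisense RNAs, 78 lay above additivity and 35 below, and of the protein-coding genes 107 above and 259 below. The split was looked at after its values were seen and was not tested. It is given without the share of each class among all genes tested and without GC correction, so it is no result about gene class. Over all genes the interaction fell with GC content (Spearman correlation -0.38). Whether GC content has a part in the split was not tested.

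Immunoglobulin genes were looked at after their values were seen. The lambda light chain constant genes IGLC2, IGLC3, IGLC6 and IGLC7, which share reads with near-identical copies, were lowest with both drugs. IGLC2 had 24.4 ± 8.63, 10.4 ± 2.61, 28.7 ± 1.43 and 3.79 ± 0.57 CPM in DMSO, CS, KPT-330 and both drugs (-1.71 ± 0.32, adjusted p = 0.00401). IGLC3 had 16.5 ± 7.36, 6.61 ± 1.63, 24.3 ± 1.37 and 1.97 ± 0.606 CPM (-2.32 ± 0.41, adjusted p = 0.0028), and IGLC7 10.2 ± 4.73, 5.93 ± 1.75, 23.5 ± 2.19 and 1.87 ± 0.625 CPM (-2.88 ± 0.44, adjusted p = 0.00096). IGLC6 had means of 7.8, 4.75, 20.6 and 1.03 CPM (-3.64 ± 0.54, adjusted p = 0.000779). IGHD, the heavy chain of IgD, which overlaps other heavy chain genes, had 12.5 ± 3.73, 17.2 ± 2.36, 14 ± 0.918 and 6.71 ± 1.3 CPM (-1.53 ± 0.27, adjusted p = 0.00285). Adjusted p-values are from edgeR's quasi-likelihood test.

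The kappa variable gene IGKV1-13, which overlaps IGKC, was called although its level followed single libraries and not groups. Its level was 0.0616, 0.0734 and 0.0485 CPM in DMSO, 0.115, 46.6 and 0.155 in CS, 48.9, 0.158 and 47.7 in KPT-330 and 0.101, 0.16 and 0.053 with both drugs. It was high in CS replicate 2 and KPT-330 replicates 1 and 3 and near 0 in the other 9 libraries, so no fold is given.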
